A study of Mus musculus with 2 samples.

Results

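Cholesterol in a cell comes from uptake of lipoproteins and from synthesis. When membrane sterol is low, the transcription factor SREBP-2 turns on the genes of the synthesis pathway. When sterol or its oxidised forms (oxysterols) are high, the nuclear receptors LXR turn on the genes that send cholesterol out of the cell. In the lung, alveolar macrophages take up and clear surfactant lipid, and alveolar type 2 cells make it.

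The genes followed were 8 from both sides of this balance, taken by name: Apoe, Abca1, Abcg1, Ch25h, Hmgcs1, Sqle, Insig1 and Srebf1. All 8 were present among the 24417 genes of the 2 deposited count tables. Abca1 and Abcg1 are membrane pumps that pass cholesterol to lipoprotein particles, and Apoe is an apolipoprotein that carries it. Ch25h makes 25-hydroxycholesterol, an oxysterol. Hmgcs1 and Sqle are enzymes of cholesterol synthesis, Insig1 is the sterol-sensing protein that holds SREBP in the endoplasmic reticulum, and Srebf1 encodes SREBP-1, which drives fatty acid synthesis genes.

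The cells came from whole lungs of C57BL/6 mice given 400 mg/kg silica into the trachea, either wild type (WT) or without the chemokine receptor gene Ccr2 (labelled CCR2-/-, here CCR2KO). Both groups had silica, and no group without it was analysed here. Lungs of days 3, 7 and 21 were stained with hashtags (antibodies that carry a DNA barcode), pooled and run as 1 library per genotype, so genotype and cartridge cannot be told apart. WT had 9 hashtags and CCR2KO had 8, and the labels tie no hashtag to a day or an animal. Each p-value below therefore measures the spread between hashtagged suspensions, which may be technical.

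The files held 17854 hashtagged WT cells and 15955 of CCR2KO, with 63327246 to 94948946 reads per WT hashtag and 56541715 to 88359317 per hashtag of CCR2KO. The median cell had 25067.5 reads in WT and 21736 in CCR2KO. Over all cells, Ccr2 itself was between 53.9 and 96.3 CPM (reads of a gene scaled to a common library total of all reads, so that hashtags of different depth can be compared) in the WT hashtags and between 1.45 and 4.39 CPM in those of CCR2KO. Cells were clustered without the 8 genes and the other genes of 6 cholesterol and lipid lists, and 7 classes were studied, named by likeness to marker lists. Among the 100 leading genes of each cluster were 10 of 10 alveolar macrophage markers, 12 of 12 interstitial macrophage markers, 7 of 11 markers of Mmp12 Gpnmb scar-type macrophages and 12 of 12 alveolar type 2 cell markers. Alveolar fibroblasts held 2 clusters, with 9 and 8 of 10 markers. Adventitial and activated fibroblasts held 1 each, with 9 of 10 and 7 of 9 markers. The smaller alveolar fibroblast cluster, of 329 cells, had a median Scrublet doublet score of 0.144, over the limit of 0.1 set for clusters. It was kept in the main results. CCR2KO had 128 scar-type macrophages against 1134 in WT, so that this class was compared over 9 WT and 5 CCR2KO hashtags with at least 10 cells.

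In WT alveolar macrophages, values of 5 of the 8 genes did not overlap between the first and the last 3 hashtags (given below), and promoter sequence is shown for the 3 of them with an entry in the RefSeq promoter table (GRCm38.p6). Only bases before both the RefSeq start and the start in the gene annotation are printed, 5′ to 3′ on the strand of the gene, so that the Insig1 stretch ends at the annotation's start, which lies before that of RefSeq. Capitals mark the letters of the sterol regulatory element searched for (TCACNCCAC) in Hmgcs1 and of the E-box (CACGTG) in Insig1 and Abca1.
Hmgcs1, chr13:119690101-119690350, plus strand: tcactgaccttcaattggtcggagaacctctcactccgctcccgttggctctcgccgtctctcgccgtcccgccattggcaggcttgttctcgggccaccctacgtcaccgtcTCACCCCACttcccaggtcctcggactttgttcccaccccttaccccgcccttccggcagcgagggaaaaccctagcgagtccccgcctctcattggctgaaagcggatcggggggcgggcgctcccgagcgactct
Insig1, chr5:28071162-28071362, plus strand: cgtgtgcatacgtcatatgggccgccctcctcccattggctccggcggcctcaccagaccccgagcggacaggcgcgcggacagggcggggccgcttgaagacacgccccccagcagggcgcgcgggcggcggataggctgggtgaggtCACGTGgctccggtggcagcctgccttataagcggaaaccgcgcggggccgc
Abca1, chr4:53159896-53160145, minus strand: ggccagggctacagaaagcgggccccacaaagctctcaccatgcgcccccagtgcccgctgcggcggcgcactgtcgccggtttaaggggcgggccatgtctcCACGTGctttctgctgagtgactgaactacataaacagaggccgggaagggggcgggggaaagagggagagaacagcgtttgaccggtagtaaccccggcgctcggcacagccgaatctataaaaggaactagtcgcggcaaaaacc

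Both strands were searched in windows of 250 bases before to 50 after the start, for 10 entries of 6 of the 8 genes (Apoe and Srebf1 had 3 starts each). TCACNCCAC was found in Hmgcs1 alone of these, 137 bases before the RefSeq start, and in 1.24% of all 32544 promoters of the table. CACGTG was found 101 bases before the RefSeq start of Insig1, which lies beyond the printed stretch, and 147 before that of Abca1, and in 7.17% of all promoters. The CCAAT box, which 37.4% of promoters held, had 4 matches in Hmgcs1, 1 in Insig1 and none in Abca1. GGGCGG, in 35.9% of promoters, had 3 matches in Hmgcs1, 3 in Insig1 and 2 in Abca1. The strict LXR repeat (DR4) and the interferon-stimulated response element had no match in any of the 10 windows, and were in 0.0154% and 3.45% of all promoters. These are matches of letters and not shown to be bound.

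The genes of the list differed in where they were read (levels below are CPM of reads summed per class and hashtag, given as mean ± SD over hashtags, and are a description because the classes were made from the same cells). Apoe (chr7:19696109-19699188) was highest in interstitial macrophages, at 7286 ± 2325 CPM in WT (n = 9) and 4671 ± 1174 in CCR2KO (n = 8). In WT no other class of 21 overlapped that range, which ran from 4441 to 10490 CPM. The next WT classes overlapped each other: a monocyte-led cluster left unnamed at 1830 ± 409 CPM, alveolar fibroblasts at 1517 ± 499, scar-type macrophages at 1471 ± 451 and adventitial fibroblasts at 966 ± 238 (n = 9 each). Alveolar macrophages were low for Apoe, at 136 ± 61.2 CPM in WT (n = 9).

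The pumps divided between the macrophage classes. Abcg1 (chr17:31057675-31117988) was led by alveolar macrophages, at 609 ± 291 CPM in WT (n = 9) and 644 ± 354 in CCR2KO (n = 8). The next WT classes, neutrophils at 131 ± 94.9 and scar-type macrophages at 126 ± 59.7 CPM (n = 9 each), overlapped its lowest hashtags. Abca1 (chr4:53030787-53159895) was led in WT by interstitial macrophages at 166 ± 54.4 CPM (n = 9) and lymphatic endothelial cells at 161 ± 182 (n = 8), which overlapped. Alveolar type 2 cells were near the bottom of both, at 4.42 ± 3.25 CPM for Abcg1 and 10.2 ± 13.1 for Abca1 in WT (n = 9).

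Ch25h (chr19:34473778-34475164) was highest in a cluster led by large-vessel endothelial genes such as Vwf and Selp, at 237 ± 91.4 CPM in WT and 297 ± 146 in CCR2KO. Alveolar macrophages followed at 88.6 ± 19.2 CPM in WT (n = 9), and activated, alveolar and adventitial fibroblasts lay between 62.7 and 72.9 CPM, all overlapping. The 9 WT hashtags of scar-type macrophages ran from 0 to 15.7 CPM and those of alveolar type 2 cells from 0 to 8.41 CPM. In CCR2KO scar-type macrophages, hashtags 2 and 4 were at 65.1 and 151 CPM and the other 3 between 0 and 0.623.

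The synthesis and control genes were spread over lipid-handling and structural cells. Hmgcs1 (chr13:119690379-119708260) was 126 ± 100 CPM in WT alveolar macrophages, 118 ± 66.0 in alveolar type 2 cells, 100.2 ± 21.4 in alveolar fibroblasts and 95.1 ± 39.3 in activated fibroblasts (n = 9 each), and these overlapped. Sqle (chr15:59315077-59331192) was led by an airway cluster with club and ciliated genes at 91.8 ± 62.5 CPM in WT, with alveolar macrophages next at 64.5 ± 65.0. Insig1 (chr5:28071363-28078662) was led in WT by alveolar type 2 cells at 94.3 ± 33.4 CPM and alveolar macrophages at 78.5 ± 58.3. Srebf1 (chr11:60199089-60222581) was led by alveolar type 2 cells in both libraries, at 124 ± 52.8 CPM in WT (n = 9) and 122 ± 38.5 in CCR2KO (n = 8), and the next class in WT, alveolar macrophages, was at 64.6 ± 13.5. For Hmgcs1, Sqle, Insig1 and Srebf1 every pair of neighbours among the first 5 WT classes overlapped in range.

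**Figure D1:**
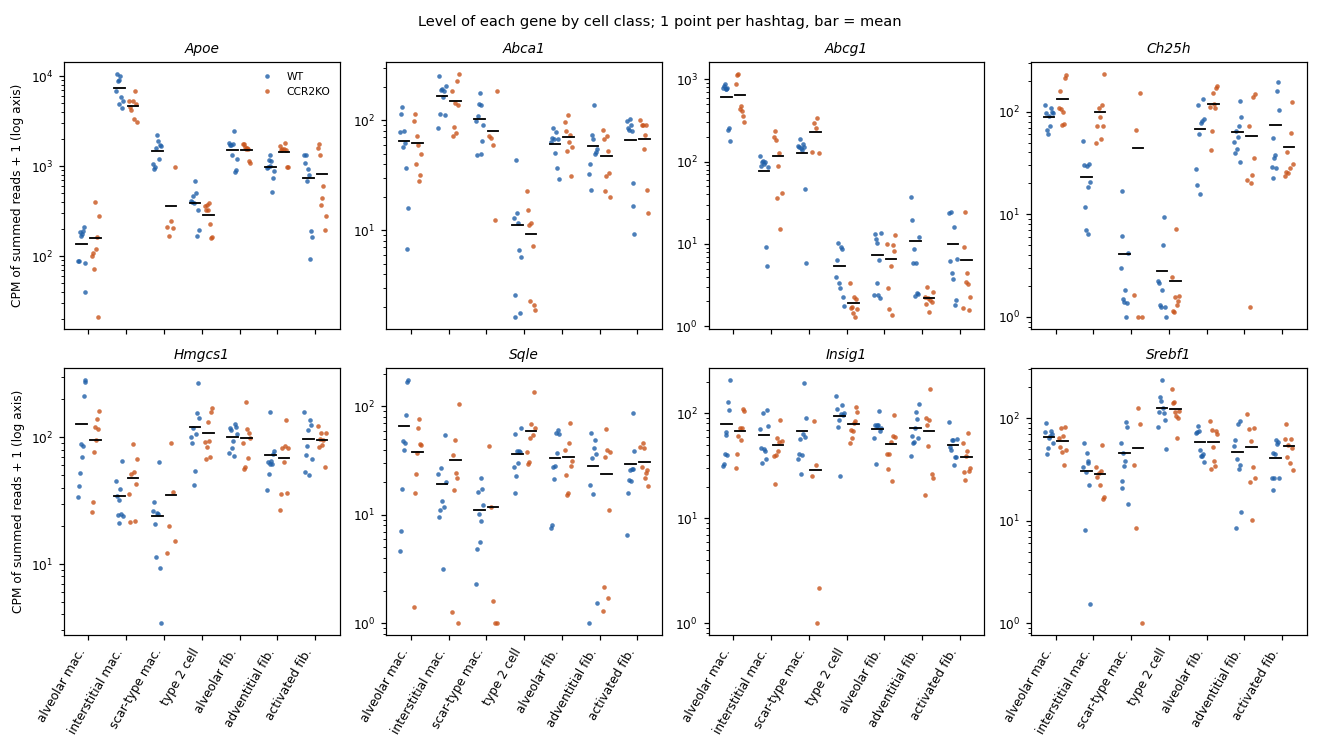
CPM + 1 on a log axis for the 8 genes in the 7 classes, with 1 point per hashtag (WT blue, CCR2KO orange) and a bar at the mean. By mean, Apoe sits highest in interstitial macrophages, Abcg1 in alveolar macrophages and Srebf1 in alveolar type 2 cells. For Abcg1, Srebf1, Hmgcs1, Sqle and Insig1 the ranges of leading classes overlap.

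Over 42 class-by-genotype means and 15072 genes, the genes most like each member in log2(CPM + 1) were named by Pearson r, as a description, since the points share 2 libraries. Sqle was followed by Gstt3 (0.725), Fdft1 (0.706) and Lss (0.682), and the latter pair are the enzymes directly before and after it in cholesterol synthesis. Hmgcs1 was followed by Gm38481 (0.766), Hcfc1r1 (0.759) and Msmo1 (0.748), a later enzyme of the same pathway. Abcg1 was followed by Naip2 (0.860), Lyn (0.847) and Nrros (0.843), and Abca1 by Lgals8 (0.844), Ethe1 (0.676) and Tspan5 (0.661). Apoe was followed by Abca9 (0.747), G530011O06Rik (0.745) and Pid1 (0.729), and Ch25h by Btd (0.773), Mesd (0.769) and Fam198b (0.764). Insig1 was followed by Sowahc (0.661), Cd44 (0.659) and Hk2 (0.644), and Srebf1 by Akap7 (0.716), Pex11a (0.705) and Ndufa4 (0.680).

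Within alveolar macrophages the synthesis genes and the pumps ran in opposite directions over the hashtag numbers in WT. This is a description with no test, because no label says what a number stands for. In WT, Hmgcs1 was 32.7 to 51.2 CPM in hashtags 1 to 3, 69.3 to 88.1 in 4 to 6 and 210 to 280 in 7 to 9. Sqle was 3.59 to 16.4, then 38.3 to 46.9, then 82.6 to 173 CPM over the same hashtags. Insig1, itself a target of SREBP, was 30.6 to 40.2, then 38.7 to 65.6, then 107 to 205 CPM. The first and last hashtags did not overlap for any of these 3 genes.

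Abcg1 went the other way in WT alveolar macrophages, at 794 to 875 CPM in hashtags 1 to 3 and 755 to 781 in 4 to 6, against 178 to 253 in 7 to 9. Abca1 was 77.3 to 131, then 56.2 to 78.8, then 5.71 to 35.7 CPM. So 3 of the 8 genes had hashtags 7 to 9 all above hashtags 1 to 3, where 8.6% of all 11200 genes tested in the class did, and 2 had them all below, against 10.1% of all genes. Apoe, Ch25h and Srebf1 overlapped.

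In the CCR2KO library the first and last hashtags lay in the same order for 4 of those 5 genes, with 3 hashtags against 2. Hmgcs1 was 24.7 to 75.0 CPM in hashtags 1 to 3 and 115 to 161 in 7 and 8, Sqle 0.407 to 22.8 against 43.4 to 44.0, with hashtags 4 to 6 at 36.6 to 75.0 and so not below the last, and Insig1 29.0 to 59.3 against 104 to 109. Abcg1 was 875 to 1160 CPM in hashtags 1 to 3 and 407 to 473 in 4 to 6, where the WT hashtags of those numbers were at 755 to 781. Hashtags 7 and 8 were at 304.9 to 363. Ch25h was also above, at 210 to 225 CPM against 105 to 159, while Abca1 overlapped. That is 4 of 8 genes above, against 14% of all genes, and 1 below, near the 14.3% of all genes.

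**Figure D2:**
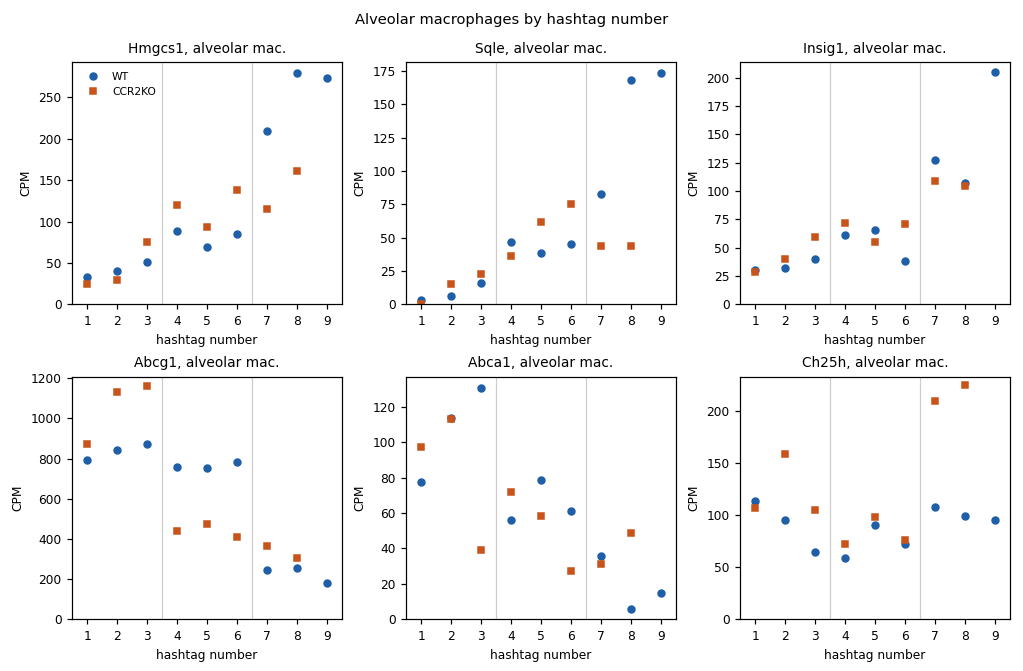
CPM in alveolar macrophages against hashtag number, 1 point per hashtag (WT circles, CCR2KO squares, grey lines between blocks of 3 numbers). WT Hmgcs1, Sqle and Insig1 are highest in hashtags 7 to 9, and WT Abcg1 drops there from at least 755 CPM to at most 253 CPM.

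The other genes of the synthesis pathway followed Hmgcs1 and Sqle in these cells. Of the 20 genes of the cholesterol synthesis list (the 2 included), all of them tested, 18 were above in hashtags 7 to 9 in WT and 15 in CCR2KO, and none was below in either, beside the 8.6% and 14% of all genes. The 2 WT exceptions were Tm7sf2 and Ebp. Of the 11 tested genes of sterol sensing and control, 4 were above in each library, Srebf2, Insig1 and Stard4 among them, 3 were below in WT (Mylip, Nr1h2 and Pparg) and 0 in CCR2KO. Of 10 tested genes of efflux and LXR targets, 4 were below in WT (Abca1, Abcg1, Pltp and Arl4c), against 10.1% of all genes, and 2 were above (Lpcat3 and Scarb1). In CCR2KO 1 was below (Abcg1), near the 14.3% of all genes, and 1 was above (Scarb1).

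Other markers moved over the same hashtags in WT alveolar macrophages. The 6 cell-cycle markers summed to 268 to 291 CPM in hashtags 1 to 3 and 449 to 565 in 7 to 9, and the 11 scar-type markers to 9400 to 11100 and 15200 to 22100 CPM. The 10 alveolar macrophage markers overlapped, at 16000 to 16800 and 16600 to 17100 CPM. In CCR2KO the cell-cycle sums overlapped (321 to 577 against 454 to 573 CPM), as did the scar-type sums (13500 to 17300 against 13500 to 20500, with 37000 to 42000 in hashtags 4 to 6), while the alveolar macrophage markers were at 16900 to 18100 and then 18900 to 19900. None of the genes of these 3 lists was at 0, and their part in the result was not tested.

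Alveolar type 2 cells showed part of the same pattern. Hmgcs1 was 88.3 to 118 CPM in WT hashtags 1 to 3 and 141 to 265 in 7 to 9, and 66.1 to 91.2 against 158 to 168 in CCR2KO. In WT this was the 1 gene of 7 tested above (6.61% of all genes), with Apoe the 1 below, near the 10.6% of all genes. In CCR2KO, Hmgcs1, Sqle and Insig1 were above (3 of 7, against 12.1%), and Apoe, Abca1 and Srebf1 were below (3 of 7, against 17.3%). Abca1 was low throughout, at 10.1 to 21.7 CPM in CCR2KO hashtags 1 to 3 and 0.899 to 1.11 in 7 and 8. It had 688 reads in 60 of 1494 CCR2KO cells, 15.8% of them in a single cell, with a median of 2 in cells with a read. Srebf1 was 140 to 194 CPM in CCR2KO hashtags 1 to 3 and 99.7 to 116 in 7 and 8. Of the 20 synthesis genes, 7 were above in WT and 17 in CCR2KO, and none was below. The 12 interstitial macrophage markers, whose class has the most Apoe, summed in alveolar type 2 cells to 49.8 to 87.8 CPM and then 30.4 to 44.7 in CCR2KO, and overlapped in WT (85.3 to 125 against 27.6 to 90.6). The cell-cycle sums in CCR2KO were 51.3 to 81.1 and then 202 to 419 CPM. No gene of either list was at 0, and their part in the result was not tested.

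Fibroblasts had less Apoe in the last hashtags. In WT activated fibroblasts, which carry Tnc, Col1a1 and Sfrp1, it was 1070 to 1330 CPM in hashtags 1 to 3, 687 to 928 in 4 to 6 and 91.0 to 190 in 7 to 9. In CCR2KO it was 1340 to 1750, then 364 to 600, then 193 to 276 CPM. Abca1 was 81.6 to 98.6 CPM in WT hashtags 1 to 3 and 8.25 to 26.0 in 7 to 9, and 89.3 to 101 against 13.5 to 22.5 in CCR2KO. Neither gene overlapped between these hashtags in either library.

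Ch25h in WT activated fibroblasts was 21.8 to 54.3 CPM in hashtags 1 to 3 and 103 to 193 in 7 to 9. In CCR2KO it was high in hashtag 7 alone, at 124 CPM, with 29.8 in hashtag 8. In these cells 2 of 8 genes were above in WT (Ch25h and Sqle, against 12.2% of all genes) and 2 below (8.9%), and 3 were below in CCR2KO (18.2%), where Sqle went against its WT direction at 26.9 to 45.0 CPM and then 17.5 to 24.8. Other markers moved over the same hashtags in WT. The 10 adventitial fibroblast markers summed to 5470 to 6150 and then 1800 to 3770 CPM, and the cell-cycle markers to 250 to 551 and then 871 to 1100. The 9 own markers of the class overlapped, at 4290 to 5200 CPM and then 5100 to 6370. In CCR2KO the adventitial sums were 5850 to 6890 and then 2250 to 2460 CPM. No gene of these 3 lists was at 0. Their part in the result was not tested.

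In alveolar fibroblasts Apoe was also lower there, at 1720 to 1780 CPM in WT hashtags 1 to 3 and 860 to 1200 in 7 to 9, and at 1610 to 1770 against 1090 to 1130 in CCR2KO. With Srebf1 that made 2 of 8 genes below in WT (6.59%). In CCR2KO Apoe was the 1 of 8 below, near the 10.6% of all genes. Sqle was above in WT (1 of 8, against 8.28%), and Ch25h, Hmgcs1 and Insig1 in CCR2KO (3 of 8, against 12.7%). In adventitial fibroblasts Apoe was the 1 of 7 tested genes below in both libraries, against 6.12% of all genes in WT and near the 10.7% in CCR2KO. It was at 949 to 1170 CPM and then 517 to 875 in WT, and at 1520 to 1650 and then 963 in CCR2KO. Abca1 went against its direction in activated fibroblasts there, at 22.5 to 38.8 CPM and then 48.5 to 54.5 in WT, the 1 gene above (5.04%), and overlapped in CCR2KO. In interstitial macrophages Abcg1 was below in both libraries, at 86.9 to 116 CPM and then 4.37 to 85.4 in WT, and at 184 to 233 and then 14 to 41.0 in CCR2KO. It was 1 of 2 genes below in each, with Apoe in WT (against 7.26% of all genes) and with Srebf1 in CCR2KO (against 16.9%). Insig1 was the 1 gene above in CCR2KO, near the 11.4% of all genes, at 20.1 to 39.5 CPM and then 53.1 to 84.8. In WT scar-type macrophages Apoe and Insig1 were the 2 of 7 tested genes above (7.85%), with Apoe at 934 to 1060 CPM and then 1200 to 1720. Abcg1 was the 1 of 7 below, near the 15.8% of all genes, at 151 to 188 CPM and then 4.82 to 150. The 12 interstitial macrophage markers summed in this class to 563 to 707 and then 1720 to 2060 CPM.

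**Figure D3:**
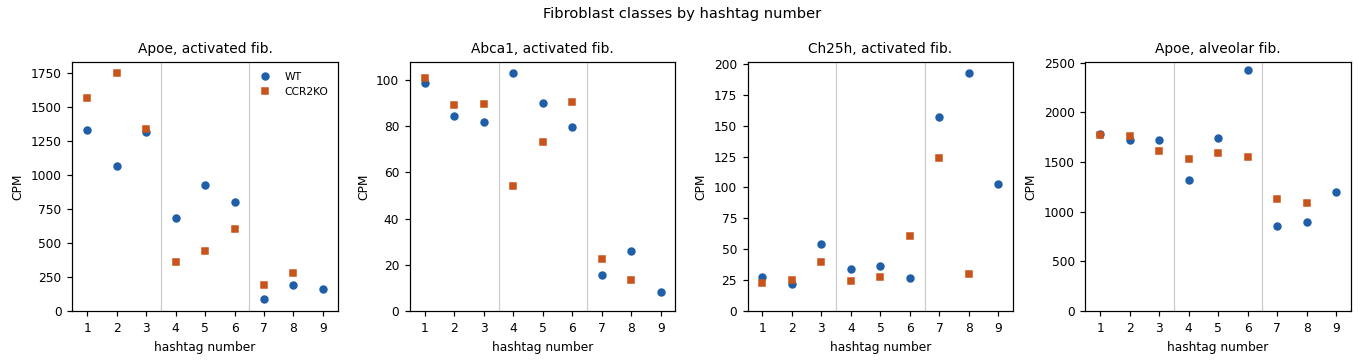
CPM against hashtag number for Apoe, Abca1 and Ch25h in activated fibroblasts and Apoe in alveolar fibroblasts (WT circles, CCR2KO squares). Apoe in activated fibroblasts drops from at least 1070 CPM in hashtags 1 to 3 to at most 276 CPM in 7 to 9 in both libraries.

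The 2 libraries were compared over all hashtags within each class, which cannot tell the genotype from the cartridge. Ch25h was higher in CCR2KO interstitial macrophages and Apoe was lower in CCR2KO scar-type macrophages, and no other pair of gene and class passed the test. Of 56 pairs, 53 passed the filter on low counts, which left out Ch25h in scar-type macrophages and in alveolar type 2 cells and Abcg1 in adventitial fibroblasts. Of the 53, 2 were called at an adjusted p under 0.05 (edgeR quasi-likelihood test, Benjamini-Hochberg over all genes of the class), where 0.392% of all 76325 gene tests in the 7 classes were. The other 51 had log2 differences (CCR2KO minus WT) between -2.25 and 0.87, and 8 of the 53 had an unadjusted p under 0.05. Over all genes of a class, the share with such a p lay between 651 of 11459 (alveolar type 2 cells) and 1070 of 9605 (scar-type macrophages).

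Ch25h in interstitial macrophages ran from 5.46 to 50.5 CPM over the 9 WT hashtags, with a median of 19.6, and from 48.1 to 231 over the 8 of CCR2KO, with a median of 79.6. A single WT hashtag, number 1, lay within the CCR2KO range. The log2 difference was 2.15 (SE 0.42, edgeR adjusted p = 0.0191), in a class where 0.0828% of genes were called higher and 0.228% lower. With each cell thinned to 5000 reads, 3.72% ± 1.56 of WT cells (SD, n = 9 hashtags) and 11.9% ± 3.69 of CCR2KO cells (n = 8) had a Ch25h read, against 9.43% and 19.1% unthinned. In B cells, which should lack it, the thinned shares were 0.614% and 0.218%, with median depths of 12756 and 11489 reads. Without CCR2KO hashtag 8 the adjusted p was 0.0533, with equal cell numbers in both genotypes 0.161, with a strict cell filter 0.0607 and with every cell given the same weight 0.0708, at log2 differences of 1.86 to 2.24.

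The Ch25h difference was also compared with that in alveolar macrophages. In alveolar macrophages it was 59.1 to 114 CPM in WT and 72.6 to 225 in CCR2KO, with a log2 difference of 0.56 (SE 0.21, edgeR adjusted p = 0.426). The difference between the classes, as log2(CPM + 1) per hashtag, changed by 1.75 between genotypes (two-sided exact permutation p = 0.000165, 0.00527 after adjustment over 32 tests of 8 genes and 4 pairs of classes). With every cell given the same weight it was 1.72 and the adjusted exact p was 0.0619.

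Some markers of other classes were called between the genotypes within interstitial macrophages. Of the 8 classical monocyte markers, all tested, Ccr2, Plac8 and Ms4a4c were called lower in CCR2KO (median log2 difference of the list -1.85). None was called of the alveolar macrophage (5 tested), scar-type (11) and large-vessel (3) lists, whose sums overlapped. The 10 alveolar macrophage markers, whose class has more Ch25h, summed to 204 to 1028 CPM in WT (median 284) and 152 to 1998 in CCR2KO (median 995). The 11 scar-type markers summed to 5243 to 13250 CPM in WT (median 6967) and 4335 to 23960 in CCR2KO (median 12920), and the 12 interstitial markers to 9841 to 14630 and 11150 to 19050. The 7 large-vessel markers, whose cluster has the most Ch25h, summed to 165 to 395 and 196 to 476 CPM. Of the 6 plasma cell markers, Jchain and Igha were called higher in CCR2KO, and the list summed to 1.63 to 32.9 CPM in WT (Tnfrsf17 at 0) and 9.87 to 16780 in CCR2KO. No marker of the alveolar, scar-type or large-vessel lists was at 0 in either genotype. The part of any of these lists in the result was not tested.

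Apoe in scar-type macrophages ran from 934 to 2214 CPM over 9 WT hashtags, with a median of 1605. The 5 CCR2KO hashtags were at 207, 168, 244, 204 and 969 CPM. The hashtag at 969 CPM, number 6, was the 1 that reached the WT range. CCR2KO hashtags 5, 7 and 8 had too few of these cells. In hashtags 1 to 3 WT was at 934 to 1060 CPM and CCR2KO at 168 to 244, though no label ties the numbers of the libraries to each other. The log2 difference was -2.05 (SE 0.38, edgeR adjusted p = 0.0223), where 0.354% of all genes of the class were called lower and 0.0625% higher. The share of cells with an Apoe read after thinning was 55.3% ± 7.57 in WT (n = 9) and 30.7% ± 9.63 in CCR2KO (n = 5), against 74.2% and 46% unthinned, and in B cells it was 24.1% and 22.2%. WT B cells were at 662 CPM for Apoe, with a median of 16 reads in cells with a read, so their share may not be background alone. The CCR2KO scar-type class was small, with 16.5% of its Apoe reads in a single cell. The adjusted p was 0.0532 at most when a hashtag was left out, which occurred without CCR2KO hashtag 3 or 4. It was 0.0954 with equal cell numbers and 0.05035 with a strict cell filter.

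Marker levels differed here too. The 12 interstitial macrophage markers, whose class has the most Apoe, summed to 563 to 2058 CPM in WT scar-type macrophages (median 1206) and 239 to 1251 in CCR2KO (median 635). The 11 markers of the class itself summed to 9163 to 22140 CPM in WT and 24320 to 33450 in CCR2KO, with Spp1 and Cd9 called higher. The 8 classical monocyte markers summed to 2968 to 5736 and 1126 to 3255 CPM, with Ccr2, Plac8 and Ms4a4c called lower. No gene of these 3 lists was at 0 in either genotype, and their part in the result was not tested.

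Apoe in interstitial macrophages was 4441 to 10490 CPM in WT and 3111 to 6766 in CCR2KO, overlapping, with a log2 difference of -0.65 (SE 0.18, edgeR adjusted p = 0.185). The difference between the 2 classes changed by 1.89 between genotypes (exact permutation p = 0.003, adjusted 0.032, 9 against 5 hashtags). With every cell given the same weight it was 1.66 and the adjusted exact p was 0.0619. CCR2KO entered with hashtags 1 to 4 and 6 only, and WT with all 9. From WT hashtags 1 to 3 to 7 to 9, Apoe fell in interstitial macrophages (6790 to 10500, then 4440 to 5820 CPM). It rose in scar-type macrophages (934 to 1060, then 1200 to 1720 CPM). The test took no account of hashtag blocks, and their part in the result was not tested. In adventitial fibroblasts Apoe was 517 to 1317 CPM in WT and 963 to 1803 in CCR2KO, with a log2 difference of 0.56 (SE 0.16, edgeR adjusted p = 0.116).

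Abcg1 passed the same test between classes. Its log2 level in alveolar macrophages against alveolar type 2 cells differed by 1.41 more in CCR2KO than in WT (exact permutation p = 0.00296, adjusted 0.032). The type 2 cells were at 0.740 to 9.19 CPM in WT and 0.293 to 2.36 in CCR2KO (log2 difference -2.25, SE 0.63, edgeR adjusted p = 0.236), and alveolar macrophages were at 178 to 875 and 304.9 to 1162 CPM (log2 difference 0.07, SE 0.34, edgeR adjusted p = 0.982). With every cell given the same weight the adjusted exact p was 0.276. The type 2 cells held 212 Abcg1 reads in 74 of 875 WT cells and 73 reads in 45 of 1494 CCR2KO cells, with 31.5% of the latter in a single cell. After thinning, 1.30% and 0.379% of type 2 cells had a read, under the 5.52% and 4.24% of B cells. Unthinned, cells with a read held a median of 1 Abcg1 read in type 2 cells of both genotypes. In B cells that median was 10 in WT and 10.5 in CCR2KO, so B cells are not a blank for this gene. The low levels in type 2 cells may be background, which was not tested. The other 29 of the 32 tests had adjusted exact p-values of 0.218 or more.

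**Figure D4:**
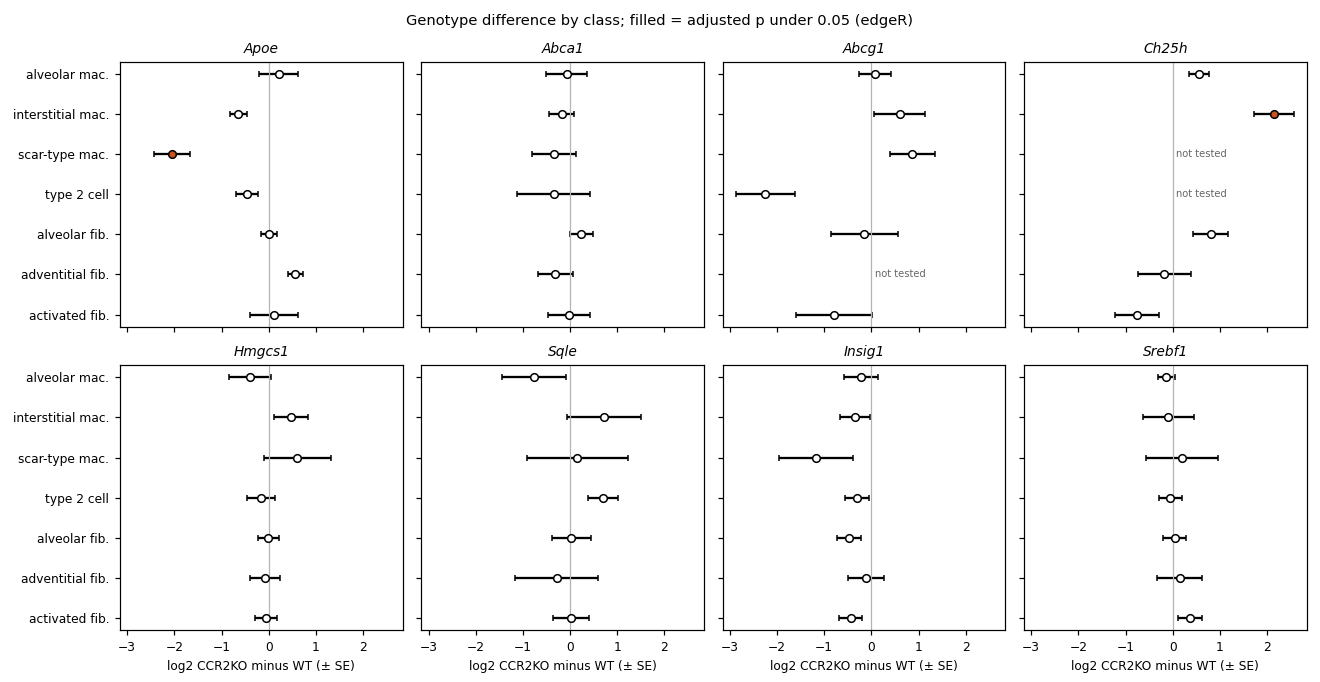
Log2 difference (CCR2KO minus WT) with its standard error for the 8 genes in 7 classes, from edgeR. Filled points mark an adjusted p under 0.05, which Ch25h in interstitial macrophages (2.15) and Apoe in scar-type macrophages (-2.05) reached.

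**Figure D5:**
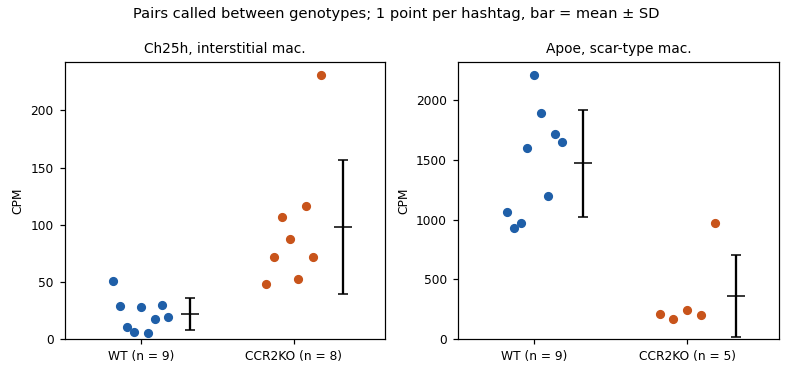
CPM per hashtag for the 2 called pairs, with mean and SD beside the points. In Ch25h a single WT hashtag at 50.5 CPM lies within the CCR2KO range, and in Apoe a single CCR2KO hashtag at 969 CPM reaches the WT range.

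Over the 6 pathway lists and 7 classes, 2 further genes were called, where 0.392% of all 76325 gene tests in the classes were. With the 2 pairs above, 2 of 65 tests were called for efflux and LXR targets. The other calls were 1 of 74 for uptake and storage and 1 of 30 for oxysterol synthesis. Arl4c, a small GTPase gene that LXR turns on, was lower in CCR2KO interstitial macrophages, at 240 to 400 CPM in WT and 120 to 267 in CCR2KO (log2 difference -0.91, SE 0.17, edgeR adjusted p = 0.0111). With every cell given the same weight its adjusted p was 0.112. Lpl, which encodes the lipoprotein lipase that frees fatty acids from lipoproteins, was higher in CCR2KO scar-type macrophages, at 291 to 919 CPM in WT against 1220 to 2310 (log2 difference 1.45, SE 0.23, edgeR adjusted p = 0.00644). With equal cell numbers its adjusted p was 0.942, at a log2 difference of 1.34. The groups did not overlap for Lpl. Of the 132 tests of cholesterol synthesis genes over the 7 classes, edgeR called 0. In 7 the unadjusted p was under 0.05, beside 651 of 11459 to 1070 of 9605 of all genes per class. The median log2 difference of the synthesis genes lay between -0.28 in alveolar macrophages and 0.25 in adventitial fibroblasts. Medians of all genes tested lay between -0.08 and 0.006. Of 10 tested genes of efflux and LXR targets, the median was -0.29 in interstitial and -0.76 in scar-type macrophages, with 1 gene called lower in each. In the other classes 8 to 10 genes of that list were tested and none was called. Their medians were -0.35 in alveolar type 2 cells, -0.2 in activated fibroblasts, -0.04 in alveolar macrophages, 0.01 in alveolar fibroblasts and 0.03 in adventitial fibroblasts.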

How the data were processed

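Whole-lung cells were measured by single-cell RNA sequencing on BD Rhapsody, with hashtags for the pooled lungs, per the labels' protocols. The submitters' processing notes name cutadapt 2.10, Bowtie2 2.4.2, R 3.6.3 and the mouse build GRCm38, with no role or order. The deposited values are counts per gene and cell that behave as reads and not molecules, since the median nonzero count was 9 in WT and 11 in CCR2KO. Cells named by the authors as doublets (680 WT and 531 CCR2KO columns) and 2 columns with no hashtag were not used.

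The cell filter asked for 200 or more genes and no more than 25% of reads from mitochondria. Scrublet's automatic limit marked 415 of 17227 WT cells (2.41%) and none of CCR2KO, so the WT limit was applied to both after seeing this, which marked 345 of 15218 CCR2KO cells (2.27%) and left 16812 and 14873 cells. The libraries shared 342 cell numbers. Clustering (scanpy 1.11.5, Leiden resolution 1.5) gave 32 clusters, of which 28 were named from 28 marker lists.

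Reads were summed per class and hashtag with at least 10 cells. Genotypes were compared with edgeR 4.0.16 (filterByExpr, TMM factors, quasi-likelihood test) and Benjamini-Hochberg adjustment over all genes of the class. On simulated data for alveolar macrophages the test recovered 58% of 4-fold and 25% of 2-fold changes. For scar-type macrophages it recovered 19% and 2%. Differences between classes used a two-sided exact permutation test of log2(CPM + 1). Gene positions are from the GRCm38 annotation. The genes, lists and markers were chosen with earlier results of these data known. The genes named are the 8, the list genes called in a class, and for each of the 8 the 3 genes most like it. Some list genes are also named for their order over the hashtag blocks in alveolar macrophages, or as exceptions to it. Some marker genes are named too. DESeq2 1.42.0 and the other settings tried are described with their effect at the end. Some genes of the lists are counted but not reported by name here.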

Additional observations from a re-analysis of the deposited data

Results flagged for a closer look

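In 22 of 112 groups of hashtags (8 genes, 7 classes, 2 genotypes), the highest hashtag stood apart from the others by Dixon's test of the gap over the range. Chance flags about 1 in 20 groups of normally distributed values. CPM values are skewed and some step with the hashtag number, so that share was not measured for these data. Each value below is in CPM, with the next highest hashtag after it.

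In interstitial macrophages, WT hashtag 8 stood apart for Sqle at 54.1 (next 26.2). CCR2KO hashtag 8 did so for Ch25h at 231 (next 116) and for Sqle at 104 (next 48.5), and CCR2KO hashtag 6 for Srebf1 at 54.2 (next 32.6). The called Ch25h difference in this class holds that CCR2KO hashtag 8.

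In scar-type macrophages, WT hashtag 7 stood apart for Hmgcs1 at 62.5 (next 29.6) and Insig1 at 194 (next 88.4), and WT hashtag 2 for Ch25h at 15.7 (next 5.14). CCR2KO hashtag 6 stood apart for Apoe at 969 (next 244) and CCR2KO hashtag 1 for Sqle at 42.4 (next 10.8). Without CCR2KO hashtag 6 the Apoe log2 difference was -2.82 (edgeR adjusted p = 2.82e-05).

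In alveolar type 2 cells, WT hashtag 4 stood apart for Abca1 at 42.6 (next 13.4), WT hashtag 7 for Ch25h at 8.41 (next 3.98) and WT hashtag 8 for Hmgcs1 at 265 (next 154). CCR2KO hashtag 5 did so for Ch25h at 6.18 (next 1.45) and CCR2KO hashtag 7 for Sqle at 134 (next 68.2).

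In alveolar fibroblasts, CCR2KO hashtag 4 stood apart for Hmgcs1 at 190 (next 115). In adventitial fibroblasts, WT hashtag 6 did so for Abca1 at 136 (next 72.1), WT hashtag 1 for Abcg1 at 36.5 (next 18.8) and WT hashtag 4 for Hmgcs1 at 158 (next 76.9). In activated fibroblasts, WT hashtag 7 stood apart for Sqle at 85.2 (next 37.7), WT hashtag 1 for Insig1 at 81.5 (next 55.9), CCR2KO hashtag 3 for Abcg1 at 23.7 (next 8.2) and CCR2KO hashtag 7 for Ch25h at 124 (next 60.9).

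The genotype difference itself differed between classes for 3 of 32 tests, on the log2(CPM + 1) scale: by 1.75 for Ch25h between interstitial and alveolar macrophages, by 1.89 for Apoe between interstitial and scar-type macrophages, and by 1.41 for Abcg1 between alveolar macrophages and alveolar type 2 cells. For Apoe, CCR2KO entered with hashtags 1 to 4 and 6 only.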

How the results depend on the processing

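Of the 53 tested pairs of gene and class, 1 was called higher in CCR2KO. The number was 2 with DESeq2, with a term for the hashtag number block and with the listed genes kept in the clustering, where Apoe in adventitial fibroblasts joined (log2 difference 0.50 to 0.67). At Leiden resolution 0.8, which gave neither an interstitial nor a scar-type class, the 1 pair was Apoe in adventitial fibroblasts (0.69, adjusted p = 0.0238). The number was 0 with a strict cell filter, with equal cell numbers and with every cell weighing the same, and 0 to 1 when each hashtag was left out (0 without CCR2KO hashtag 8). The number called lower was 1, and 0 with the strict cell filter, with equal cell numbers and at Leiden resolution 0.8. It was 0 to 1 when each hashtag was left out (0 without CCR2KO hashtag 3 or 4). The causes were not tested, other than those classes missing.

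Ch25h in interstitial macrophages had log2 differences of 2.00 to 2.33 over 11 alternatives and adjusted p-values of 0.0001 to 0.161, and Apoe in scar-type macrophages -2.13 to -1.84 and 7.1e-05 to 0.0954. No direction reversed. With every cell weighing the same, 0 of the 3 differences between classes were called. Without thinning, the shares of cells with a read were 9.43% and 19.1% for Ch25h and 74.2% and 46% for Apoe.

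Same-numbered hashtags did not all deviate together (correlations of -0.011 to 0.53 over 8 pairs, median 0.378, 3 of 8 closest to their own number), so the numbers were not taken as pairs. Of the 8 WT hashtags, 7 were closest to a CCR2KO hashtag of their own block of 3 numbers, over all cells and in alveolar macrophages. In alveolar fibroblasts 6 were, and in interstitial macrophages 4. Median correlations of same-numbered hashtags within these classes were 0.08 in alveolar macrophages, 0.025 in alveolar fibroblasts and 0.009 in interstitial macrophages. With a replicate block by hashtag number the number called higher was 1 and the number called lower 1, but Ch25h in interstitial macrophages had an edgeR adjusted p of 0.0911 and Apoe in adventitial fibroblasts 0.0256. Over all genes, calls in scar-type macrophages numbered 40, against 369 with DESeq2, 3 with equal cell numbers, 11 with the replicate block and 15 to 141 when each hashtag was left out. In alveolar macrophages they numbered 41, against 118 with DESeq2 and 133 with the block term. In alveolar fibroblasts they numbered 84, against 58 without the cluster of high doublet score.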
